A study of Mus musculus with 19 samples.

Results

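Layer 6b is the deepest sheet of neurons of the mouse neocortex and lies between layer 6 and the white matter. Sample E, mostly layer 6, was compared with sample F, mostly layer 6b. These are 2 of the 19 samples of the series, and each is 1 library of polyadenylated RNA pooled from 8 male C57BL/6 mice (substrain C57BL/6J by the study's methods) at P56, 56 days after birth. The same 8 mice, which came from 2 litters of 4, gave both samples. Both were cut from the primary somatosensory cortex (S1), E from the fifth and F from the sixth of 6 adjacent segments that run from the pia to the white matter. The mice carried no stated mutation and received no stated treatment, so depth in the cortex is the only stated difference of tissue between E and F. The 2 libraries also differed in insert size and in the length of some reads. The labels say "mostly" of both layers. Segment B, mostly layer 4, was the only one sequenced in 2 libraries, B1 and B2, each from 4 mice of a litter. These served as the reference for the difference that 2 pools of the same segment can show, and unlike E and F they come from different mice. Samples A (layers 1 to 3), C and D (both mostly layer 5) gave the profile of a gene above layer 6. The other 12 samples, from dorsal and lateral cortex, were left aside and are not analysed here. Values over the 7 libraries are written "from A to F", with B1 before B2.

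Neurons of layer 6 mostly send their axons to the thalamus or to other cortical cells, and carry markers such as Ntsr1, Foxp2 and Tle4. Layer 6b holds the remnant of the subplate, the earliest born and largely transient neurons of the cortex, and its survivors are known by Ctgf, Cplx3, Nxph4 and Nr4a2. Directly beneath lies the white matter, whose myelin is made by oligodendrocytes, and beyond it, at this level of the brain, the striatum. A thin dissection next to the white matter can therefore hold neurons of layer 6b and of layer 6, bundles of myelinated axons, and cells of neighbouring structures.

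Levels are the deposited FPKM, fragments scaled to gene length and to the mapped fragments of the library, with the 95% interval that cufflinks gave within each library. This interval covers the counting and assignment of fragments and not the variation between mice. A gene was kept where its widest interval over the 7 S1 libraries was at most 50% of its mean FPKM, which left 11409 of 24130 listed genes. A kept gene was called higher in F or in E where the 2 intervals did not overlap, the ratio of F to E was at least 2-fold on the scale log2(FPKM + 0.1), and this ratio was larger in size than the ratio of B2 to B1 for the same gene. The last condition asks little of a gene that is nearly absent from B1 and B2, as Nxph4 and Thbs4 below are. With 1 library a group there is no replicate check of a call, and no p-value is given for a gene. By this rule 319 genes, 2.8% of those kept, were higher in F, and 132 genes, 1.16%, were higher in E, which is 3.95% in all. On the same scale the median ratio over all kept genes was 0.02.

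The depth estimated from the deposited coverage was 43.8 M fragments in E and at most 55.4 M in F, since some reads of F were longer, against 31.3 to 74.9 M over the 7 libraries. The median interval of kept genes was 12.9% of the FPKM in E and 12.4% in F. E and F had a Spearman correlation of 0.972 over all listed genes, and B1 and B2 had 0.965. The SD of the log2 ratio over kept genes was 0.55 for F to E and 0.67 for B2 to B1, and intervals were apart in 53.8% of kept genes between E and F and in 66.4% between B1 and B2. Intervals that did not overlap with a 2-fold difference were found in 4.54% of kept genes between E and F and in 6.03% between B1 and B2. The number of such genes is thus no larger than between 2 pools of layer 4, and what follows describes which genes they were. The insert size was 239 bases in B1 and 193 in B2, against 172 in E and 184 in F. The part of insert size in the ratios of either pair was not tested. In the limma fit of the 6 segments, where the spread of B1 and B2 (1 residual degree of freedom) stood for all, 0 genes passed an adjusted p of 0.05 for F against E, and the smallest adjusted p was 0.367. With so few degrees of freedom this count says nothing of whether a single gene differed. Nor are the counts of this fit at an unadjusted p read here, since E and F have 1 library each.

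Genes known from layer 6b neurons held some of the largest differences. Of the 16 genes listed for layer 6b, 9 were kept and 5 of these were higher in F, namely Ctgf, Cplx3, Nxph4, Moxd1 and Tmem163, while no member was higher in E. A gene of this list that is seen almost only in F passes the filter on interval width through F, so the 16 members are described here one by one. Ctgf (listed under its newer name Ccn2, chromosome 10, 24315248 to 24318489 in mm9) codes for a secreted growth factor of the extracellular matrix. It was at 1.24, 0.634, 0.794, 1.51, 3.53, 31.4 and 167 FPKM from A to F. The libraries above layer 6 were all below 4 FPKM, E stood above them all, and F was 5.34-fold above E, with intervals from 30.3 to 32.4 FPKM (E) and from 165 to 170 (F). Cplx3 (chromosome 9, 57449183 to 57454038 in mm9) codes for a complexin, a small protein that clamps and triggers the fusion of synaptic vesicles. It was at 9.24, 3.22, 3.22, 2.29, 2.90, 30.5 and 164 FPKM from A to F, a fold of 5.39 from E to F. Its level was nearly that of Ctgf in both E and F, and it differed from Ctgf in a second, smaller level in A.

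Nxph4 (chromosome 10, 126962529 to 126971615 in mm9), a neurexophilin and thus a secreted ligand of neurexins, had the largest log2 ratio of the kept layer 6b genes, 2.72. It was at 0.401, 0.0546, 0.0555, 0.163, 0.335, 6.20 and 41.3 FPKM from A to F. It was below 0.5 FPKM in the 5 libraries above E, and had the highest ratio of the kept members of the list from D to E as well as from E to F. Moxd1 (chromosome 10, 23943323 to 24022596 in mm9), a monooxygenase related to dopamine beta-hydroxylase, was at 0.515 to 1.07 FPKM from A to D, 2.74 in E and 9.49 in F, a log2 ratio of 1.76. Moxd1 and Ctgf are neighbours in the genome, 292651 bases apart, and the 3 listed genes between them were not kept and reached at most 0.842 FPKM in E or F. Tmem163 (chromosome 1, 129383135 to 129574598 in mm9), a zinc transporter of synaptic vesicles, had another profile. It was at 1.25, 2.25, 2.03, 9.18, 7.73, 7.17 and 26.6 FPKM from A to F. It was higher in C than in A and B, near level from C to E, and highest in F (log2 ratio of F to E 1.88).

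Nr4a2, a nuclear receptor that marks subplate and claustrum neurons, was not kept, because its intervals are wide. It was at 2.01, 1.27, 1.51, 1.74, 3.51, 8.73 in E (interval 6.55 to 10.9) and 27.1 in F (23.5 to 30.7) FPKM from A to F, a log2 ratio of 1.62. Inpp4b, a lipid phosphatase, went from 1.38 to 4.71 FPKM and Svil, an actin binding protein, from 1.23 to 3.51. Htr1d, a serotonin receptor, was at 0.246 FPKM in E and 1.94 in F, with a log2 ratio of 2.56. Lpar1, a receptor for lysophosphatidic acid, had 17.1 and 45.5 FPKM, and oligodendrocytes express it as well. The intervals of E and F did not overlap for any of these 5, and all 5 would be called if the filter on interval width were left out. That makes 10 of 16, beside 810 of all 24130 listed genes called higher in F without the filter.

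The other 6 members did not pass. Drd1 (Drd1a), the D1 dopamine receptor, was just under the limit, with 5.87 FPKM in E (5.49 to 6.26), 11.8 in F (11.2 to 12.3) and a log2 ratio of 0.99. It was placed on the layer 6b list only, and the part of striatal tissue in its ratio was not tested. Cobll1 stood at 0.98 and was not kept. Kcnab1, a potassium channel subunit, had a log2 ratio of 0.80 (22.0 and 38.2 FPKM) and Gabra5, a GABA receptor subunit, 0.50 (24.3 and 34.4 FPKM). The intervals of E and F overlapped for Rxfp1, a relaxin family receptor, at 3.25 and 3.30 FPKM, and for Hcrtr2, an orexin receptor, at 0.830 and 0.703. The median log2 ratio was 1.76 over the 9 kept genes and 1.53 over all 16, beside 0.02 over all kept genes.

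**Figure D1:**
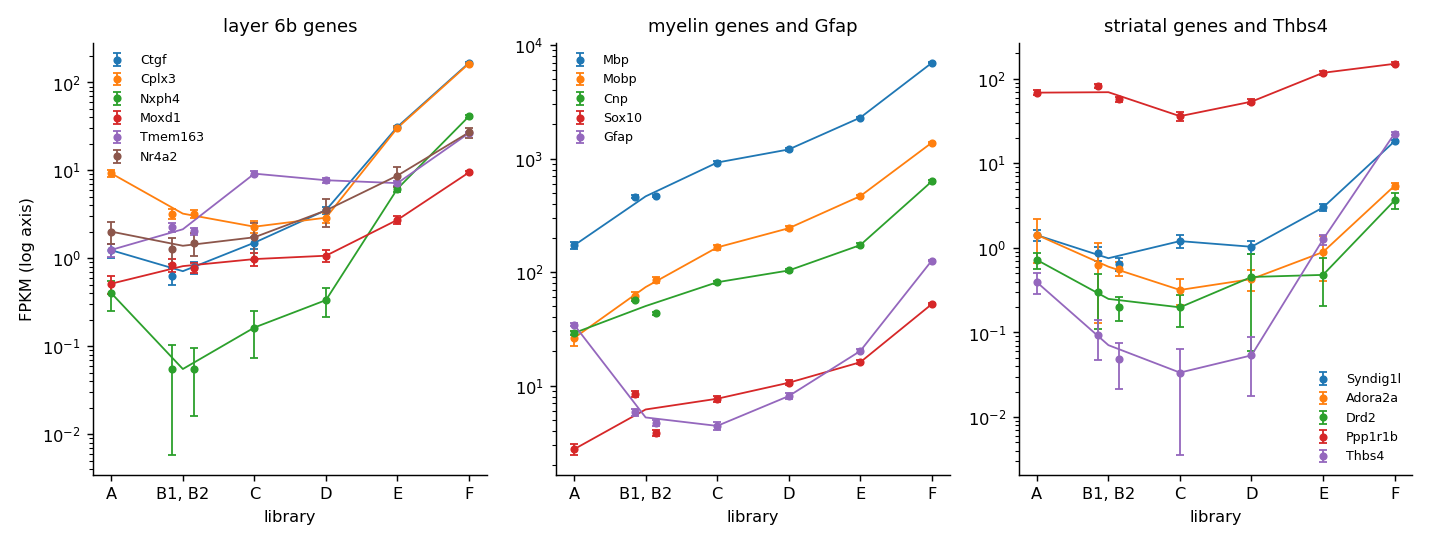
FPKM (log axis) of 6 layer 6b genes, 4 myelin genes with Gfap, and 4 striatal genes with Thbs4 in the 7 S1 libraries from superficial (A) to deep (F), points with the deposited 95% interval (its lower end drawn no lower than 5% of the value) and lines through the segments, with B as the mean of B1 and B2. Ctgf, Cplx3 and Nxph4 stay low to D and climb at E and again at F, the myelin genes climb at every segment, and Syndig1l goes from 3.01 FPKM in E to 18.3 in F.

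The markers of layer 6 did not set E apart from F. Of 16 listed genes 14 were kept, none was higher in E and 1, Nxph3, was higher in F. Ntsr1, the neurotensin receptor of corticothalamic neurons, was at 0.4, 0.664, 0.463, 0.918, 2.49, 5.51 in E (5.18 to 5.84) and 5.20 in F (4.88 to 5.51) FPKM from A to F. The values of E and F overlap and both are more than 2-fold over D. Tbr1, a transcription factor needed for the identity of layer 6 neurons, was at 73.5 and 66.6 FPKM in E and F, and Tle4, a corepressor, at 35.0 and 39.8. Foxp2 (13.2 and 13.9) and Syt6, a synaptotagmin (22.5 and 18.6), were not kept, and their intervals overlapped. The lowest ratio of the list was that of Ntng2, a netrin-related adhesion protein, with 17.4 FPKM in E and 10.2 in F (log2 ratio -0.77), which was less than its own difference between B1 and B2 (-0.81). The median over the 14 kept genes was -0.08 on the log2 scale. Set against its label, F thus held the genes of layer 6b, with those of layer 6 at levels close to the ones in E. In turn E held Ctgf at 31.4 FPKM and Cplx3 at 30.5 against 3.53 and 2.90 in D.

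Nxph3, listed with layer 6, is a relative of Nxph4, and was at 1.46, 3.44, 2.40, 12.4, 19.7, 51.9 and 123 FPKM from A to F. With B as the mean of its libraries, Nxph3 was higher in every segment than in the one above, whereas Nxph4 was low above E. The log2 ratio of F to E for Nxph3 was 1.24. The other neurexophilins went the other way and were not called, Nxph1 with 14.2 FPKM in E and 9.44 in F and Nxph2, which was not kept, with 1.24 and 0.614. Among the complexins only Cplx3 was called. Cplx1, the complexin of fast cortical synapses, had 275 FPKM in E and 193 in F (log2 ratio -0.52), and Cplx2 had 406 and 296 (-0.45). Cplx4, known from the retina, was at or below 0.0637 FPKM in every library.

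**Figure D2:**
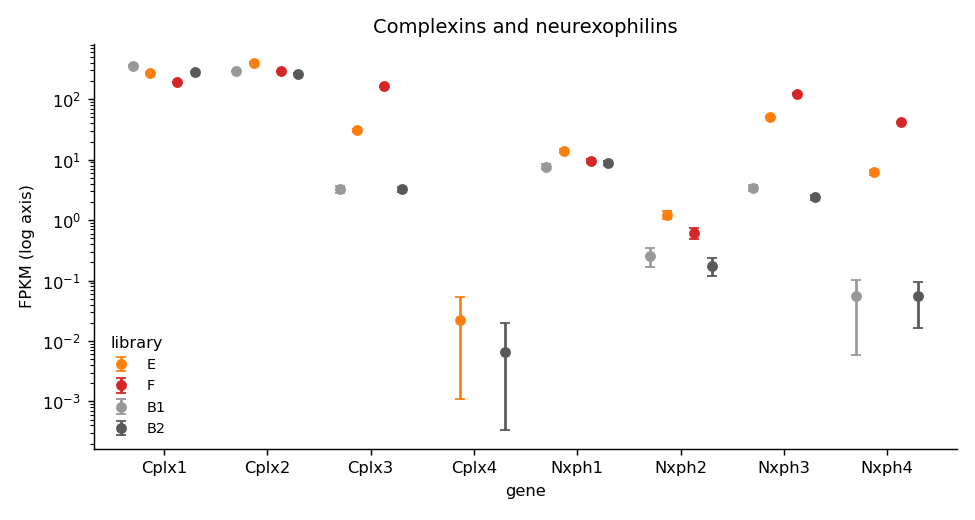
FPKM (log axis) of the 4 complexins and 4 neurexophilins in E and F, with the replicate libraries B1 and B2 of layer 4 beside them, and bars for the deposited 95% interval. Cplx3, Nxph3 and Nxph4 lie higher in F than in E, the other members lie at or below E.

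Of the marker lists examined, that of oligodendrocytes, also the longest, had the most genes higher in F, while 278 of the 319 genes are in no list. All 28 kept members of the 29 listed for oligodendrocytes and myelin were called, with a median log2 ratio of 1.57 and a narrow range from 1.05 (Enpp2) to 1.86 (Cnp). Mbp, myelin basic protein, was at 172, 460, 469, 922, 1203, 2291 and 6954 FPKM from A to F. It was higher in each segment than in the one above, and 3.04-fold higher in F than in E. Mobp, another structural protein of myelin, went from 466 to 1379 FPKM. Cnp, an enzyme of the inner myelin tongue, went from 173 to 629, and Sox10, the transcription factor of the whole lineage, from 16.1 to 52.2. Mag, the adhesion protein of the innermost myelin membrane, had 99.0 and 316 FPKM, Cldn11, of its tight junctions, 130 and 388, and Mog, of its outer surface, 58.1 and 162. Myrf, which switches on the myelin genes, had 10.9 and 34.2 FPKM, and the lineage factors Olig1 and Olig2 had 53.1 and 133, and 10.4 and 25.3. Enpp2, the lipid enzyme with the lowest ratio, went from 77.7 to 161 FPKM. The member that was not kept, the transcription factor Nkx6-2, had 6.97 and 24.5 FPKM.

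The depth profile of these genes was as uniform as their ratio. Of the 28, 27 were higher in every segment than in the one above, with B as the mean of its libraries, beside 1049 of all 11409 kept genes (9.19%). The exception was Apod, a lipid carrier that meningeal cells also express, at 78.6 FPKM in A. Of the 319 genes higher in F, 119 had such a profile (37.3%), 27 of them from the oligodendrocyte list. The call itself sets their last step, F above E, so this share cannot be compared with that of all kept genes. The profile was also that of 6 of 11 kept microglial genes and 6 of 14 of layer 6. In 126 of the 319 (39.5%), 26 of them from the oligodendrocyte list, D was at least 2-fold above A, beside 27.5% of kept genes. Genes of oligodendrocyte precursors differed less: of 8 listed, 5 were kept and 1, Gpr17, was called, at 9.78 FPKM in E and 20.1 in F. The call of Gpr17 is lost with a pseudocount of 1, on a median of ratios scale, without mitochondrial genes and with ratios centred on GC content. Pdgfra, their growth factor receptor, had 5.51 and 8.05, Cspg4 (NG2) 2.01 and 2.64 and Pcdh15 1.80 and 1.39. Not kept were Enpp6, of newly formed oligodendrocytes, with 3.38 and 15.7 FPKM, Bmp4 with 0.697 and 2.29, and Neu4 with 1.10 and 2.26. C1ql1, which was kept, had 3.36 and 6.18. The part of this white matter signal in the ratios of other genes was not tested. Genes for cholesterol, which oligodendrocytes make for myelin, differed less: 0 of 17 kept were called. Their median log2 ratio was 0.40, from -0.05 (Idi1) to 0.78 (Lss), below the medians of oligodendrocytes (1.57) and of their precursors (0.54).

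The bases upstream of a few start sites are shown as examples from genes called higher in F, a pair from the layer 6b list and a pair from the oligodendrocyte list. Factors of the Sox family bind DNA around the letters ACAAAG or, on the other strand, CTTTGT. These were looked for in the 250 bases before the annotated start (RefSeq, GRCm38.p6), on both strands, and are in capitals. The layer 6b windows are chr9:57606282-57606531, minus strand, for Cplx3 and chr10:24223267-24223516, plus strand, for Moxd1, and the myelin windows chr9:120149492-120149741, plus strand, for Mobp and chr19:41077114-41077363, minus strand, for Opalin, an oligodendrocyte membrane protein (25.3 FPKM in E, 76.3 in F). Each ends at the base before the annotated start.
Cplx3: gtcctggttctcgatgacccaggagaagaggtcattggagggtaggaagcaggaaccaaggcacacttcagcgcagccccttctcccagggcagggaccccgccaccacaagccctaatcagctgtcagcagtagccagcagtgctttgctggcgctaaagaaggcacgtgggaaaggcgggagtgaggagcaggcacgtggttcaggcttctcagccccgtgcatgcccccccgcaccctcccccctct
Moxd1: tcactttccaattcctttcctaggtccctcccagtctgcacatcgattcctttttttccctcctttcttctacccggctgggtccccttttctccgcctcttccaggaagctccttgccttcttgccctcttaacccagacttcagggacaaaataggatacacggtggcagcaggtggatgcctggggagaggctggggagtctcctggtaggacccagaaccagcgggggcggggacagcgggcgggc
Mobp: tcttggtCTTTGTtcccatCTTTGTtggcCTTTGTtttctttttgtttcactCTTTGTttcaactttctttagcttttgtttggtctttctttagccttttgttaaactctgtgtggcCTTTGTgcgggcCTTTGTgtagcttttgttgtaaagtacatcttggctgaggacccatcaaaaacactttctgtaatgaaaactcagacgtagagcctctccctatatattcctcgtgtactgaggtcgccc
Opalin: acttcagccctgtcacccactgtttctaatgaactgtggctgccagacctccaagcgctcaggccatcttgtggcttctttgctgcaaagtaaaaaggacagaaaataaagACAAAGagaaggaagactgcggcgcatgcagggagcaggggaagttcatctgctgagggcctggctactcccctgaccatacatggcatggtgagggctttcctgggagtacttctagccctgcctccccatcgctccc
The Mobp window held the letters 6 times, that of Opalin once, and those of Cplx3 and Moxd1 not at all. Over all 32851 such windows of RefSeq genes, 16.5% held them at least once. Of 25 windows for the 18 oligodendrocyte genes with an entry 10 held them (40.0%), which were windows of 8 genes, and of 18 windows for the 12 layer 6b genes with an entry 3 did (16.7%). The letters were also in 7 of 21 windows for inhibitory interneurons and in 3 of 9 for microglia (33.3% each). Ctgf and Nxph4 have no entry. The letters are short and a match is not a binding site.

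Other glia and vessels differed less than oligodendrocytes. Of the 17 astrocyte genes 16 were kept and 1 was called. This was Gfap, the intermediate filament of fibrous and reactive astrocytes, at 34.4, 5.81, 4.68, 4.42, 8.09, 20.2 and 126 FPKM from A to F. It was low in the middle layers and high at both edges of the cortex, and its fold from E to F was 6.26. Vim, another filament of such astrocytes, was not kept and had 5.76 FPKM in E and 17.7 in F. Some genes of astrocytes at large were nearer to even, such as Slc1a2 (269 and 315 FPKM) and Slc1a3 (71.9 and 80.5), the glutamate transporters, and Gjb6 (11.4 and 11.1). The list median was 0.37 on the log2 scale, and 14 of the 16 kept genes had F above E. With a limit of 1.5-fold, Aqp4, Mlc1 and Sox9 were also higher in F. Of 15 microglial genes 11 were kept and 0 called, with ratios among the kept from -0.06 (P2ry12) to 0.55 (C1qc) and a median of 0.42. Trem2, not kept, had 5.45 and 8.91 FPKM. Of 15 genes of endothelium and mural cells 12 were kept and 0 called, with a median of 0.10, and lay between Slco1a4 (6.91 and 5.24 FPKM) and Slc2a1 (19.4 and 28.7), transporters of the blood-brain barrier. None of the 8 leptomeningeal genes was kept, and their summed FPKM was 4.83 in E and 7.70 in F against 38.4 in A. The highest of them was Igf2, with 2.57 FPKM in E and 4.84 in F, and the other members (Dcn, Lum, Col1a1, Col1a2, Col3a1, Slc6a13 and Ogn) were below 1 FPKM in both.

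Some genes of the striatum, which lies beyond the white matter, were also higher in F. Of the 20 genes listed for striatal projection neurons 10 were kept and 3 called, 2 of which are described here. Syndig1l, a synapse differentiation protein, was at 1.42, 0.865, 0.647, 1.2, 1.03, 3.01 and 18.3 FPKM from A to F. It was 6.07-fold higher in F than in E. Gng7, the G protein subunit that couples receptors to adenylyl cyclase in the striatum, had 11.6 and 24.5 FPKM in E and F, with 29.2 in C. Its call is lost when ratios are centred within bins of GC content.

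On this list 3 receptors were present at low levels, while the dopamine receptor Drd1 was listed with layer 6b. Adora2a, the adenosine receptor of indirect pathway neurons, was at 0.894 FPKM in E (0.403 to 1.38) and 5.44 in F (5.02 to 5.85), and Drd2 at 0.480 (0.206 to 0.753) and 3.64 (2.87 to 4.42). Gpr6 had 0.198 and 1.53. None of the 3 was kept, the intervals of E and F did not overlap, and without the filter each would be called. Sh3rf2, also not kept, had 0.0131 and 0.362 FPKM and would be called without the filter too, which makes 7 of 20. Ppp1r1b (DARPP-32), the most abundant of the list, had 118 FPKM in E and 151 in F (log2 ratio 0.35) and is expressed by layer 6 neurons as well. Rgs9, not kept, was at 6.69 and 10.6, Penk at 24.0 and 35.6, Pde10a at 9.96 and 14.0, Rarb at 2.29 and 2.51. Scn4b (27.8 and 16.6) and Meis2 (36.5 and 21.7) were lower in F without being called. The median log2 ratio was 0.54 over the 10 kept genes and 0.61 over all 20. The part of striatal tissue in the difference between E and F was not tested. In these pooled tissue samples more cells of a type and more RNA per cell cannot be told apart.

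Ttr, transthyretin, which in the brain is made almost only by the choroid plexus, was at 25.4, 1.07, 1.42, 1.16, 7.70, 65.7 and 199 FPKM from A to F. It was the 1 of 5 kept genes called among 12 listed for ependyma, choroid plexus and subventricular zone. Kl, another gene of the choroid plexus, was at 0.303 and 0.820 FPKM. The ciliary genes Ccdc153 (0.0747 and 0.978) and Tmem212 (listed at 0 in E and 0.381 in F) were low, and Foxj1 (2.35 and 4.82) moved less than its own difference between B1 and B2. Without the filter on interval width Kl, Ccdc153 and Tmem212 would be called too, which makes 4 of 12. Dcx, of migrating neuroblasts, had 2.58 and 2.09. Of 8 genes of the hippocampus, 3 were kept and Prox1, of dentate granule neurons and some interneurons, was called with 2.06 and 5.63 FPKM, while Fibcd1, of CA1 pyramidal cells, had 1.32 and 0.877, and Wfs1 5.78 and 7.06. Zbtb20 (3.41 and 11.3) was not kept. Spink8, Dsp and Tdo2 were all below 1 FPKM in both.

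**Figure D3:**
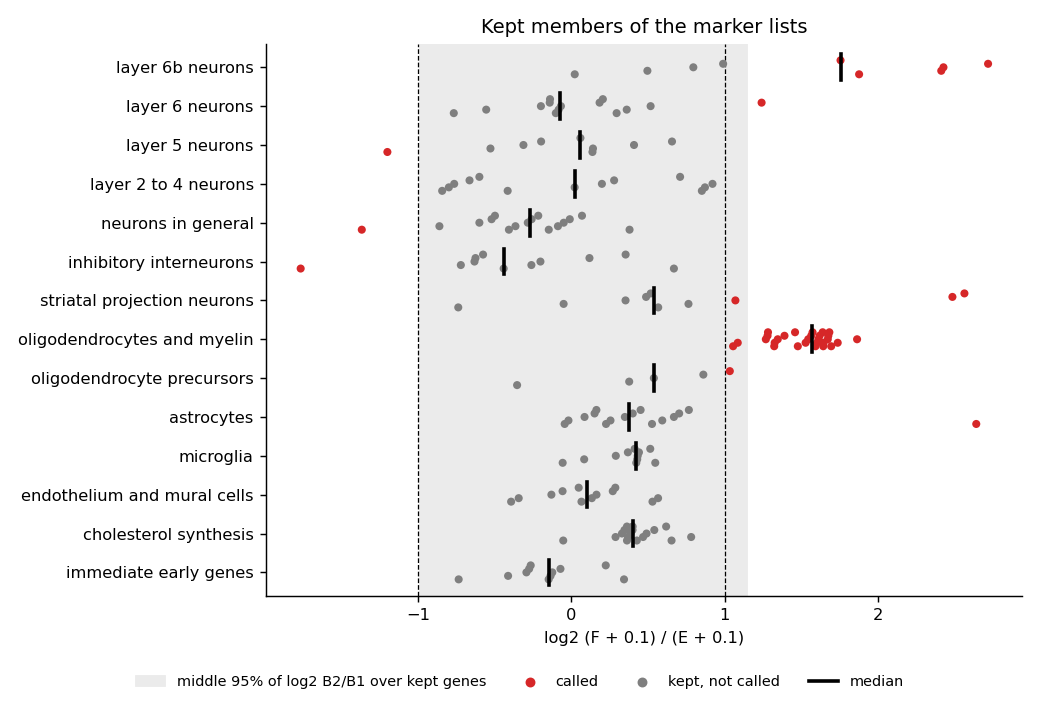
log2 ratio of F to E of the kept members of 14 marker lists, 1 point a gene, red where called and grey where not, with a bar at the median. Dashed lines mark the 2-fold limits and the shaded band the middle 95% of the ratios of B2 to B1 over kept genes. The 28 oligodendrocyte genes lie together between 1.05 and 1.86, and the layer 6b genes spread from 0.02 to 2.72. The other lists have medians from -0.44 (inhibitory interneurons) to 0.54 (striatal projection neurons). Of these the striatal list has 3 genes called, and the rest have 1 or 0.

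The step from D to E is given beside the step from E to F for the genes higher in F. Both ratios use sample E, so a high or low value of E moves them in opposite directions, and they are given side by side as a description. The 28 oligodendrocyte genes had log2 ratios of E to D from 0.24 to 1.17. Leaving out genes at or below 0.1 FPKM in E or F, 274 genes were higher in F. The 28 set the range and are among them. Of the other 246 genes 138 (56.1%) fell in the same range of E to D, beside 19.0% of the other kept genes. Of the 138, 124 were also within the oligodendrocyte range of F to E. That count is largely set by the call, which asks for at least 2-fold, and 229 of all 274 genes lay in that range of F to E. Genes found in both ranges that the list does not hold, chosen after their values were seen, include Bcas1 (69.8 FPKM in D, 107 in E, 306 in F), Ndrg1 (20.2, 35.1 and 114), Pllp (27.6, 40.2 and 115), Gpr37 (10.9, 18.8 and 55.6), S1pr5 (6.13, 8.79 and 25.8), Tmem88b (16.9, 29.8 and 84.0) and Efnb3, an ephrin (15.7, 25.2 and 82.3). These are a pick and do not show what the other genes in both ranges are. Thbs2 (0.390, 0.838 and 2.77), Mcam (5.32, 7.05 and 21.8), Plin3 (2.81, 5.29 and 18.2) and Rhog (14.7, 20.1 and 61.3) were also in both.

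From D to E, 0.938% of kept genes were at least 2-fold higher with intervals apart. Above the oligodendrocyte range were 15 genes (5.47%, beside 0.605% of all kept genes). They included Nxph4, with a log2 ratio of E to D of 3.86, Cplx3 with 3.35, Ctgf with 3.12 and Moxd1 with 1.28, together with Nxph3 (1.40), Thbs4 (3.15), Ttr (3.08), Adra2a (1.94), Gfap (1.31) and Syndig1l (1.46). The others were Trp53i11, Clic5, Nfe2l3, the cytoskeletal gene Anln and the microRNA gene Gm22721. Anln, at 0.377 FPKM in A, 2.94 in D, 7.06 in E and 23.9 in F, climbed at every segment as the myelin genes did. Adra2a, the alpha-2A adrenergic receptor that noradrenaline acts on, was at 1.2 to 1.77 FPKM from A to D, 6.43 in E and 18.1 in F. It belongs to the family of monoamine and acetylcholine receptors, where 21 members were kept and 1 was called in each direction.

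At the other end, 48 genes (17.5%, beside 40.2% of all kept genes) were lower in E than in D and then higher in F. These included Gng7 and Tmem163. Others, chosen after their values were seen, were Klhdc8a (2.30 FPKM in D, 1.18 in E, 3.76 in F), Foxo1 (2.69, 2.05 and 4.85), Il33, a cytokine of oligodendrocytes and astrocytes (12.5, 12.1 and 27.4), and Ptgds, prostaglandin D2 synthase of meninges and oligodendrocytes (106, 96.5 and 270, with 1733 in A). The remaining 45 genes had E above D by less than any oligodendrocyte gene.

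**Figure D4:**
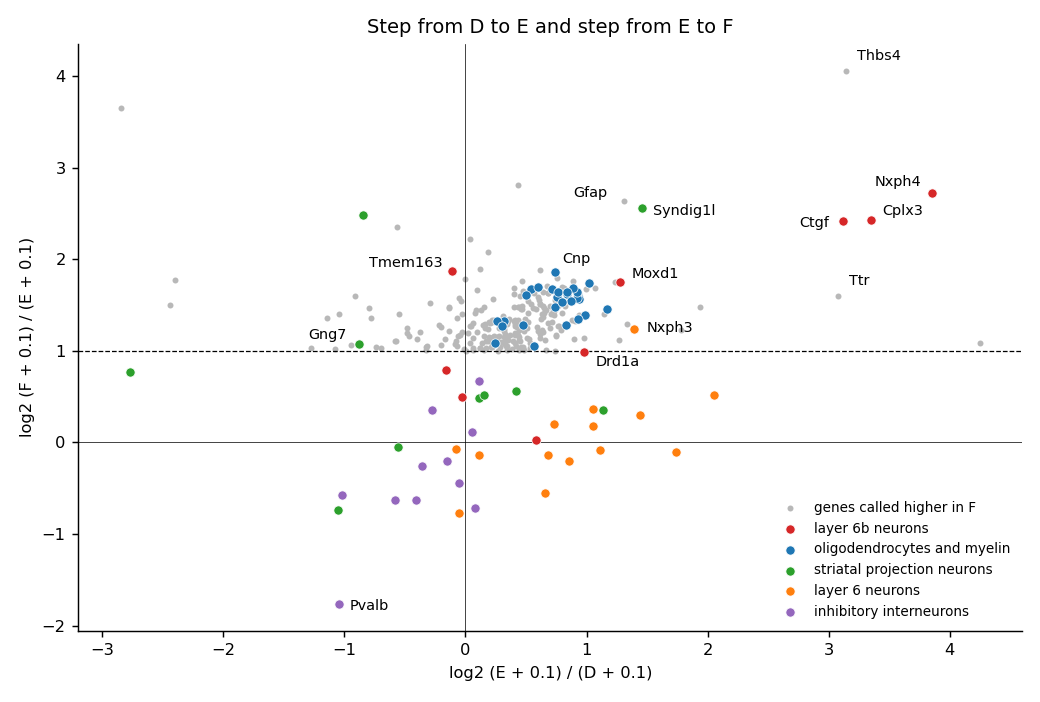
log2 ratio of E to D (horizontal) and of F to E (vertical) of the 274 genes called higher in F (grey) and of the kept members of 5 lists (colours), with a dashed line at 2-fold. Sample E is in both ratios. The oligodendrocyte genes gather between 0.24 and 1.17 on the horizontal axis, Ctgf, Cplx3, Nxph4 and Thbs4 lie to their right beyond 3, Gng7 lies to their left below 0, and 1 of the layer 6 genes lies above the 2-fold line.

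Thbs4, a thrombospondin, one of the secreted matrix proteins of astrocytes, had the largest ratio of any gene called higher in F that was above 0.1 FPKM in E and F. It was at 0.393, 0.0934, 0.0482, 0.0335, 0.0536, 1.26 in E (1.08 to 1.44) and 22.5 in F (21.8 to 23.3) FPKM from A to F, a fold of 17.9. It was below 0.1 FPKM from B1 to D and is in no marker list. Only 15 of the 274 genes exceeded the highest oligodendrocyte ratio of 1.86. Beside Thbs4, Nxph4, Gfap, Syndig1l, Cplx3, Ctgf and Tmem163 these included C4b, a complement component (0.453 and 3.79 FPKM), Adgrg6, an adhesion receptor (0.721 and 3.38), Bmp6, a growth factor (0.248 and 1.2), the ribosomal pseudogene Rpl13a-ps1, Gm10244 and 2 genes that the annotation does not name. The reads of Rpl13a-ps1 can come from its parent gene. Of the 11 families examined, that of the extracellular matrix had the most genes higher in F, 5 of 28 kept, beside 2.8% of all kept genes. The 5 were Thbs4, Thbs2 (0.838 and 2.77 FPKM), Hapln2 of the nodes of Ranvier (5.57 and 18.8), Col9a3 (1.85 and 4.47) and Col20a1. Col20a1 was listed at 0 in all libraries but A (0.272) and F (0.458). No member of the family was higher in E. Thbs4, seen almost only in F, passes the filter on interval width through F, and Hapln2 is also in the oligodendrocyte list. With intervals of at most 25% of the mean, 0 of 14 kept members of the family were called.

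The highest ratios by the rule were mostly those of genes listed at exactly 0 in E or F, which can be a failed estimate. Of the 12 highest, 10 were listed at 0 in E, and of the 12 lowest, 10 were listed at 0 in F. Timp4, an inhibitor of matrix proteases in astrocytes, was at 10.1 to 12.4 FPKM from A to D, 0 in E and 8.30 in F, and Entpd2 at 2.52 to 5.54 from A to D, 0 in E and 3.97 in F. Mif4gd and Trp53i13 were listed at 0 in all libraries but F (11.9 and 3.04 FPKM), and Pigl in all but A (1.02) and F (2.85). In the other direction Gpr83, a receptor, was at 5.63 FPKM in E and 6.57 to 7.47 in B1, B2, C and D, with 0 in A and F. Rpl12 was at 3.35 in E and 0 in F, Rsc1a1 at 4.05 and 0, and Snord99, a small nucleolar RNA, at 3.65 and 0. The rest were the microRNA genes Mir686, Mir1901 and Mir1895, the pseudogenes Gm6293 and Gm6654, the processed transcript A730017L22Rik, the antisense gene Gt(ROSA)26Sor and 4 unnamed genes. No fold is given for them. Gm14493, an antisense gene with 0.0439 and 2.81 FPKM, completed the 12 highest together with Thbs4. Gm13339, a pseudogene (43.9 and 7.60), and Gm23935, a microRNA gene (287 and 63.0), completed the 12 lowest. The reads carry no strand, so an antisense gene and its partner cannot be told apart. Antisense genes made up 17 of the 319 and 23 of the 132, beside 378 of all 11409 kept genes. With genes listed above 0 in all 7 libraries only, an alternative added after seeing the data, 287 genes were higher in F and 95 in E.

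Genes of neurons in general leaned to E, and 2 of the 16 had F above E. All 16 listed were kept, with a median log2 ratio of -0.27, beside -0.16 for B2 to B1, and 1, Nefm, was called. Snap25, the SNARE of synaptic vesicles, had 1574 FPKM in E and 1115 in F (log2 ratio -0.50), Rbfox3 (NeuN) 130 and 107 (-0.28), and Elavl3, at the other end, 51.2 and 66.7 (0.38). Nrgn had 1558 and 1028, Camk2a 602 and 420, while Slc17a7, the vesicular glutamate transporter of cortical neurons, had 762 and 799. When all ratios were centred on this list, a shift of 0.27 upwards, 582 genes were higher in F and 85 in E, so that 87.3% of the calls were towards F in place of 70.7%. The 28 oligodendrocyte genes and the 5 of layer 6b were called on either scale, and Drd1 and Kcnab1 were called in addition. Genes of layers 2 to 4 (0 of 13 called) had a median of 0.02 and went both ways, from -0.84 for Calb1 to 0.92 for Plxnd1. With a limit of 1.5-fold, 3 of them were higher in F and 5 in E. Their median was -0.41 with a mean of at least 1 FPKM in place of the interval filter. Of layer 5, 1 of 9 kept genes was called, Tmem200a with 1.6 and 0.64 FPKM. This call is lost with a pseudocount of 1 or when centred on neurons. The layer 5 median was 0.06, and Crim1 was at the other end with 7.64 and 12.1 FPKM. Immediate early genes (0 of 11 called, median -0.15) spanned -0.73 (Egr3) to 0.34 (Ier2), and Egr3 differed more between B1 and B2.

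Of 17 genes of inhibitory interneurons 11 were kept, and 1 of them, the parvalbumin gene Pvalb, was called higher in E. This calcium buffer of fast-spiking basket cells was at 61.1, 70.2, 118, 145, 117, 56.4 in E (54.3 to 58.6) and 16.5 in F (15.4 to 17.7) FPKM from A to F. It was lowest in F, with a fold of 3.41 between E and F, larger than the difference between B1 and B2. The other markers moved less: Gad1 had 50.7 and 32.9 FPKM, Gad2 21.7 and 15.9, Sst 270 and 235, Vip 8.82 and 5.32, and Reln 2.51 and 1.65. Npy (144 and 156), Calb2 (1.76 and 2.85) and Dlx1 (6.30 and 8.08) were above E in F, without a call. Not kept were Lhx6 (4.73 and 3.07), Nos1 (4.59 and 6.25), Chodl (0.284 and 0.689), Htr3a (0.930 and 1.71), Dlx5 and Sox6. The list median was -0.44, beside a median of -0.25 for B2 to B1.

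Among the rest of the 132, 6 genes were picked out after their values were seen, so that nothing is read from them as a group. Syt2, a calcium sensor of synaptic terminals, was at 3.54, 21.2, 15.0, 26.4, 23.7, 9.53 and 3.28 FPKM from A to F. Vamp1, a vesicle SNARE, was at 30.4, 88.4, 71.1, 85.6, 90.1, 47.8 and 19.1 FPKM from A to F. Kcnc2 (Kv3.2), a potassium channel subunit, had 18.1 FPKM in E and 8.20 in F, and Scn1a, a sodium channel subunit, 21.8 and 10.8. The neurofilaments Nefm (98.2 and 38.0) and Nefh (16 and 7.31), which thick axons and large pyramidal neurons of layer 5 also hold, were the last of these. Kcnc2, Scn1a and Nefh are not called when ratios are centred on neurons. Each of the 6 was highest in C or D, lower in E than in D and lower again in F. They were picked with these values known, so the shared profile is not a result. Other genes called higher in E had other profiles: Fstl4 and Cpne9 were highest in B1, Rgs4 in B2 and Tmem196 in E. In 61 of the 132 (46.2%) D was below A, beside 32.2% of kept genes.

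In the 4 families of channels and receptors given here most kept members had F below E, while 5971 of all 11409 kept genes had F above E. This was not particular to them. F was also below E in 14 of 21 monoamine and acetylcholine receptors, 30 of 48 axon guidance genes, 10 of 18 neuropeptide receptors, 7 of 12 neuropeptides and 20 of 20 mitochondrial genes. Cadherins (11 of 27) and the extracellular matrix (12 of 28) leaned the other way. Of 62 kept potassium channel subunits 42 had F below E, and 5 were called higher in E, beside 1.16% of all kept genes. Of the 5, Kcnc2, Kcnq5 (13.8 and 6.27 FPKM) and Kcnab3 (12.7 and 5.85) had the lowest ratios, before Kcng4 and Kcnh4. Kcnk13, a two-pore channel of glia, was the 1 called higher in F (2.42 and 6.96). Of 28 sodium and calcium channel subunits 25 had F below E and 1, Scn1a, was called. For GABA receptors 11 of 14 were lower in F with 0 called, and the lowest, Gabra3, had 44.5 and 25.1 FPKM. For glutamate receptors 15 of 21 were lower and 1 was called, the NMDA receptor subunit Grin2a, at 10.3 and 4.90. The medians of these 4 families on the log2 scale were -0.28, -0.33, -0.40 and -0.15, against -0.27 for neurons in general. The medians of the log2 ratio of B2 to B1 were -0.29, -0.09, 0.05 and -0.27 in the same order, so for potassium channels and glutamate receptors the shift was no larger than between the B libraries. Centred on neurons, 0 members of the 4 families were called higher in E, and the log2 ratios of Kcnq5 and Kcnab3 were -0.86 and -0.83.

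Of the 132 genes higher in E, 62 were protein-coding, beside 269 of the 319 higher in F and 9726 of all 11409 kept genes. Of the 132, 84 were also called when centred on neurons. Adcyap1, the neuropeptide PACAP, was at 3.12, 8.02, 7.17, 13.2, 10.4, 2.54 and 0.662 FPKM from A to F, and was the 1 neuropeptide called higher in E among 12 kept. Nmb, called higher in F, was listed at 0 in E, as was the neuropeptide receptor Avpr2. Cdh12, a cadherin, had 4.18 and 1.52 FPKM, and among 27 kept cadherins Celsr1 was called the other way (0.502 and 1.22). Of 48 axon guidance genes Robo3 was higher in E (2.90 and 1.24), and Efnb3 and the semaphorin Sema6a (6.72 and 16.8) in F. Adra1d, the alpha-1D adrenergic receptor, had 5.93 and 2.28 FPKM, with a log2 ratio of -1.34 that barely passed its own difference between B1 and B2 (-1.32). The calls of Robo3, Adra1d and Rgs4 are lost when centred on neurons. Among genes chosen after their values were seen, the synaptic organizer Cbln2 had 18.2 and 6.45 FPKM, Fstl4 5.57 and 1.86, Frzb, an inhibitor of Wnt, 7.81 and 2.86, Tmem196 16 and 4.39, and Rgs4, a regulator of G protein signalling, 105 and 48.7.

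**Figure D5:**
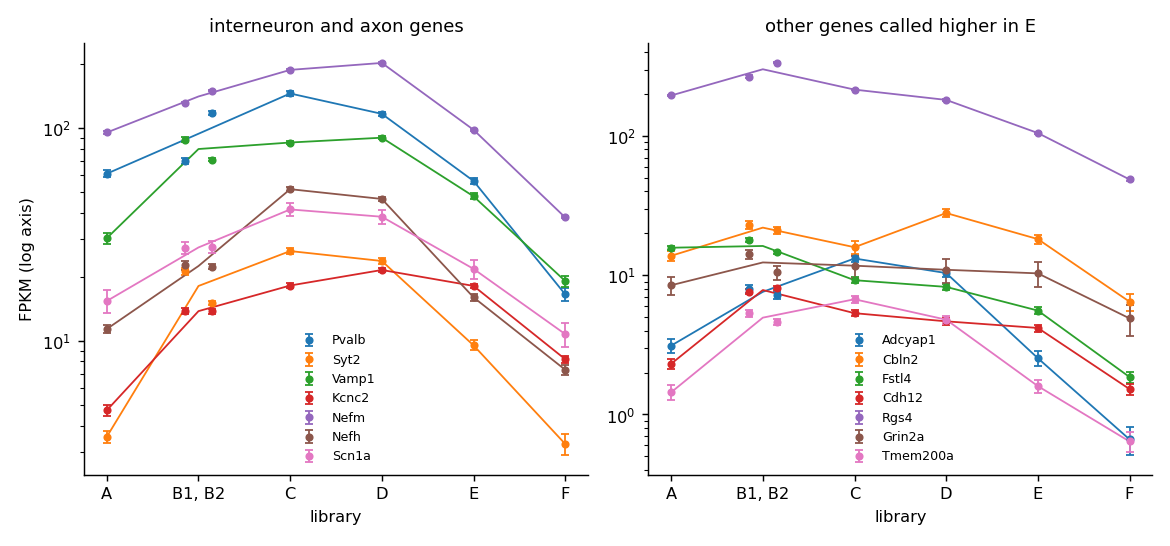
FPKM (log axis) of 14 genes called higher in E in the 7 S1 libraries, points with the deposited 95% interval and lines through the segments, with B as the mean of B1 and B2. The left panel holds Pvalb with genes picked after their values were seen, Syt2, Vamp1, Kcnc2, Nefm, Nefh and Scn1a. All of these peak in C or D, which for the picked genes is not a result. The right panel holds Adcyap1, Cbln2, Fstl4, Cdh12, Rgs4, Grin2a and Tmem200a. Each falls from E to F.

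RNA of the mitochondrial genome was 7.67% of the summed FPKM in E and 5.03% in F. All 20 kept mitochondrial genes were lower in F, with a median log2 ratio of -1.07. The same genes differed more between B1 and B2 (median 1.58), and only the transfer RNAs mt-Tq and mt-Ts1 were called. A gene's ratio also moved with its GC content, by a Spearman correlation of 0.24 for F to E and -0.54 for B2 to B1 over 10801 genes, the points sharing both libraries of a pair. The part of GC content in single calls was not tested. With ratios centred within 20 bins of GC content, 280 of these 10801 genes were higher in F and 117 in E. Among them were the 28 oligodendrocyte genes, the 5 of layer 6b, and Pvalb. Genes without a GC value are left out here, some called genes without a name among them. Part of the lower counts comes from that.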

How the data were processed

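The authors sequenced polyadenylated RNA of pooled tissue from both ends of each fragment, mapped it to mm9 with TopHat and estimated levels with Cufflinks against Ensembl release 57, and deposited FPKM per gene with a 95% interval. The FPKM are normalized to the mapped fragments of a library and to gene length. The deposited transcript coverage, also made by Cufflinks, was used only to estimate depth, as coverage per FPKM. The libraries are not strand-specific.

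Genes of the 7 S1 libraries were joined by identifier with Python 3.11.15 (pandas 2.3.3), and symbols, biotypes and GC content came from GENCODE by identifier. Ratios are on the scale log2(FPKM + 0.1). E and F have 1 library each, so calls rest on the deposited intervals, a 2-fold limit and the ratio of B2 to B1. Named genes are a fixed set of markers, the 12 highest and 12 lowest called ratios (and the 10 of each outside nonneuronal, striatal, hippocampal and ependymal lists) at a mean of at least 1 FPKM in E and F, the extremes of each list, all members of lists of at most 8, and up to 3 called genes a direction in each family. Others are marked as chosen after their values were seen. A secondary fit used limma 3.58.1 (Benjamini-Hochberg adjustment) on the 6 segments. The call and the fit were tested on simulated data. The members and lists were chosen with earlier results of these data known. Some genes of the lists are not reported here.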

Additional observations from a re-analysis of the deposited data

How the results depend on the processing

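No paired analysis was possible because E and F have 1 library each, which makes fewer than 2 pairs. The counts of genes higher in F and in E were 319 and 132. They were 419 and 237 with a pseudocount of 0.01, 216 and 49 with 1 (81.5% of calls towards F, in place of 70.7%), 582 and 85 when centred on neurons in general, 180 and 97 with intervals of at most 25%, 470 and 113 with a mean of at least 1 FPKM in place of the interval filter (80.6% towards F) and 810 and 335 with no filter. A limit of 1.5-fold gave 834 and 460, and one of 4-fold 35 and 32 (52.2% towards F). Without 1 of the B libraries they were 368 to 370 and 165 to 171. This also drops the condition on the ratio of B2 to B1, and dropping only that condition gave 350 and 168. The median log2 ratio of the layer 6b list was 1.49 with a pseudocount of 1, 2.02 when centred on neurons, 1.88 with the 25% limit, 1.62 with the mean of at least 1 FPKM and 1.53 with no filter. The 25% limit kept only 5 members of this list, of which 3 were called, and the calls of Nxph4 and Moxd1 were lost. Centred on neurons, the medians were 1.84 for oligodendrocytes and 0.81 for the striatum. The cause of these shifts was not tested. The limma fit was run at 6 settings. Its counts are not read, since its spread rests on B1 and B2 alone. With 1 pooled library each, the variation between mice could not be measured in E or F.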
